A study of Mus musculus with 18 samples.

Results

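Testis RNA of mice given a high fat diet with streptozotocin (STZ), the group named HFD_STZ here, was compared with testis RNA of untreated control mice. The comparison held 3 HFD_STZ libraries and 3 control libraries, which are 6 of the 18 libraries of the series. They were chosen by the treatment given in the labels. The genes compared were the 13874 of 20979 with a value of 1 or more in at least 3 of the 18 libraries. All mice were of the outbred ICR stock, and their testes were taken at an age of 10 weeks. Control mice had neither agent, and HFD_STZ mice had the high fat diet and STZ. AOS mice had AOS at 10 mg/kg without the diet or STZ, and HFD_STZ_AOS mice had the diet, STZ and AOS at 10 mg/kg. AOS is an abbreviation that the labels leave unexplained, and no dose of STZ, length of the diet or blood glucose is given in the sources used here. The last 2 groups of the series had the diet and STZ with FMT, a transfer of fecal microbiota. By their labels HFD_STZ_AOS_FMT goes with AOS at 10 mg/kg and HFD_STZ_control_FMT with control, and no AOS dose is given for the latter. Both enter here only through the shared estimate of spread and as values shown beside the others. The series set out to ask how such a transfer acts on a testis damaged by the diet and STZ. Wherever given, the diet and STZ came together, so their parts cannot be told apart. In the comparisons below "the diet" stands for both.

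STZ is taken up by the insulin-producing beta cells of the pancreas and kills them, and with a high fat diet it is a common way of making rodents diabetic. The testis makes sperm inside seminiferous tubules, where Sertoli cells nourish the germ cells and seal them behind the blood-testis barrier, and Leydig cells between the tubules make testosterone. Sertoli cells burn fatty acids, some of them from germ cell remains, and pass lactate made by glycolysis to the germ cells. Diabetes in rodents is known for lowered testosterone, oxidative stress and loss of germ cells.

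Values are RPKM, as inferred from their form, which scales the reads of a gene to the gene's length and to the size of the library. Differences are HFD_STZ minus control on log2(RPKM + 1), given with their standard error (SE), and for genes of low level they are smaller than the true change. The tissue's own markers were high in the 6 libraries. The sperm protamine gene Prm1 was at 11650 to 14483 RPKM, the Leydig cell hormone gene Insl3 at 2929 to 3881 RPKM and the meiotic gene Sycp3 at 172 to 195 RPKM. RPKM summed to 588160 to 604901 over the genes of a library, and the number of reads behind a library was not recovered here. Libraries correlated across genes (Pearson's r, genes not being independent replicates) at 0.990 to 0.994 within a group and at 0.988 to 0.994 between the groups. One control library stood apart in genes of the epididymis, the duct next to the testis. Crisp1, a secreted protein of epididymal epithelium, stood at 2.71, 0.15 and 159 RPKM in control replicates 1 to 3 and at 0.15 RPKM in each HFD_STZ library, and Adam7, also epididymal, stood at 0.07, 0 and 8.62 RPKM against 0, 0.02 and 0 RPKM. The epididymal genes Lcn5 and Lcn8 were listed at 0 in all 6 libraries. No label says that the libraries of a group came from separate animals, so the spread on which p-values rest may be technical.

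Over all genes the groups lay close together. The difference was under 0.25 in either direction for 92.4% of the 13874 genes, and limma called 0 genes (0%) after Benjamini-Hochberg adjustment at a threshold of 0.05, with a smallest adjusted p of 0.0661. An unadjusted p under 0.05 was found for 1151 genes (8.3%), where 693.7 are expected by chance. Of these, 855 were higher in HFD_STZ (6.16% of all genes tested) and 296 lower (2.13%). With libraries scaled by median ratios this split was 617 higher and 575 lower, and with each library's trend on transcript length removed it was 617 and 613, so the excess of higher genes depends on the scaling. The 3 libraries of 1 group lay entirely above the 3 of the other for 1627 genes in the higher direction (11.7%) and for 628 in the lower (4.53%). Differences of 1 or more were found for 11 genes upward and 33 downward. Of the 33, control replicate 3 was the highest control library in 26, and only 9 stayed at or beyond this size without it, among them 4 kallikrein genes. Because no gene passed the adjusted test, "higher" and "lower" below describe these 6 libraries.

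The 24 genes named first are the 12 higher and 12 lower ones with the smallest unadjusted p among those whose groups did not overlap and whose mean reached 5 RPKM in the higher group. Fitm1, an endoplasmic reticulum protein that drives the formation of lipid droplets, lies on chromosome 14 at 55575617 to 55576954 (GRCm38/mm10). It stood at 4.86, 5.54 and 6.99 RPKM in control and at 20.1, 13.6 and 17.2 RPKM in HFD_STZ. Every HFD_STZ library was thus well above the highest control library, and the difference was 1.40 ± 0.23 (SE; limma, adjusted p = 0.143). Arg2, the mitochondrial arginase that turns arginine into ornithine and urea, stood at 4.93, 2.80 and 2.46 RPKM in control and at 10.8, 6.63 and 9.94 RPKM in HFD_STZ, a difference of 1.22 ± 0.23 (adjusted p = 0.226). Smpdl3a, a secreted phosphodiesterase related to acid sphingomyelinase, stood at 18.5, 14.6 and 14.5 against 26.6, 21.3 and 25.5 RPKM. Aqp8, a channel for water and small solutes found in Sertoli and germ cells, stood at 10.0, 10.1 and 10.2 against 13.0, 15.0 and 12.3 RPKM, so its 3 control libraries were almost equal and all HFD_STZ libraries lay above them.

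Brsk1, a kinase of the AMPK-related family, stood at 22.1, 20.6 and 22 RPKM in control and at 31.0, 30.6 and 33.1 RPKM in HFD_STZ, a difference of 0.53 ± 0.11 (adjusted p = 0.242). Its lowest HFD_STZ library was well above its highest control library. Sag, known as the arrestin of the retina, stood at 6.43, 4.68 and 7.61 against 10.5, 10.3 and 10.5 RPKM, with a wider spread in control than in HFD_STZ. Art5, an ADP-ribosyltransferase with high expression in testis, stood at 45.9, 41.4 and 40.4 against 62.8, 51.3 and 61.9 RPKM. The related gene Art1, chosen after its values were seen, stood at 0.73, 1.81 and 1.05 against 7.16, 3.62 and 3.88 RPKM, a difference of 1.40 ± 0.36 (adjusted p = 0.281). Art1 and Art5 overlap on opposite strands of chromosome 7, and whether counting used strand is not given in the sources used here, so reads of the pair may not be told apart. The other 5 higher genes differed by 0.22 to 0.53. They were Tspan4, a tetraspanin of the cell membrane, Urod, an enzyme of heme synthesis, Mrpl24, a protein of the mitochondrial ribosome, Tubb2a, a beta-tubulin, and Epb41l3, a membrane skeleton protein that binds cell adhesion molecules at junctions, for which the lowest difference of the 12 (0.22 ± 0.05) was found. Their adjusted p values and those of the rest of the 12 lay between 0.143 and 0.276.

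Among the lower genes, Sec23a had the smallest p of all genes tested. It encodes a coat subunit of the COPII vesicles that carry proteins out of the endoplasmic reticulum. Sec23a stood at 46.6, 45.1 and 45.0 RPKM in control and at 35.4, 34.5 and 34.5 RPKM in HFD_STZ, with little spread inside either group, and the difference was -0.38 ± 0.06 (limma, adjusted p = 0.0661). Of the 26 genes listed for vesicle coats of the secretory pathway, 12 were higher and 14 lower, with a median of -0.01 that turned positive in 1 of 14 alternatives. Gsta3, a glutathione transferase that also isomerizes steroid intermediates, stood at 26.9, 28.4 and 41.5 against 14.8, 22.9 and 15.6 RPKM, a difference of -0.82 ± 0.20 (adjusted p = 0.276). Its highest control library was the one high in epididymal genes, and the other 2 were still above all of HFD_STZ. Mapk10, the kinase JNK3, stood at 14.0, 16.1 and 16.5 against 10.7, 10.8 and 12.3 RPKM.

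Arl9, an ARF-like small GTPase, stood at 100.2, 89.0 and 97.8 RPKM in control and at 75.4, 83.4 and 80.3 RPKM in HFD_STZ, a difference of -0.26 ± 0.05 (adjusted p = 0.242). Upf3a, a factor of nonsense-mediated decay that is abundant in testis, stood at 203, 193 and 190 against 179, 175 and 175 RPKM, the smallest difference of the 12 (-0.15 ± 0.04). Sc5d, the sterol desaturase near the end of cholesterol synthesis, stood at 8.64, 8.32 and 10.2 against 5.67, 6.92 and 6.90 RPKM. The remaining lower genes were Shisa3, Mindy4, Prpf31 (a splicing factor), Ak6 (an adenylate kinase of the nucleus) and the kallikreins Klk1b24 and Klk1b27. Adjusted p values of the 12 lay between 0.0661 and 0.309.

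**Figure D1:**
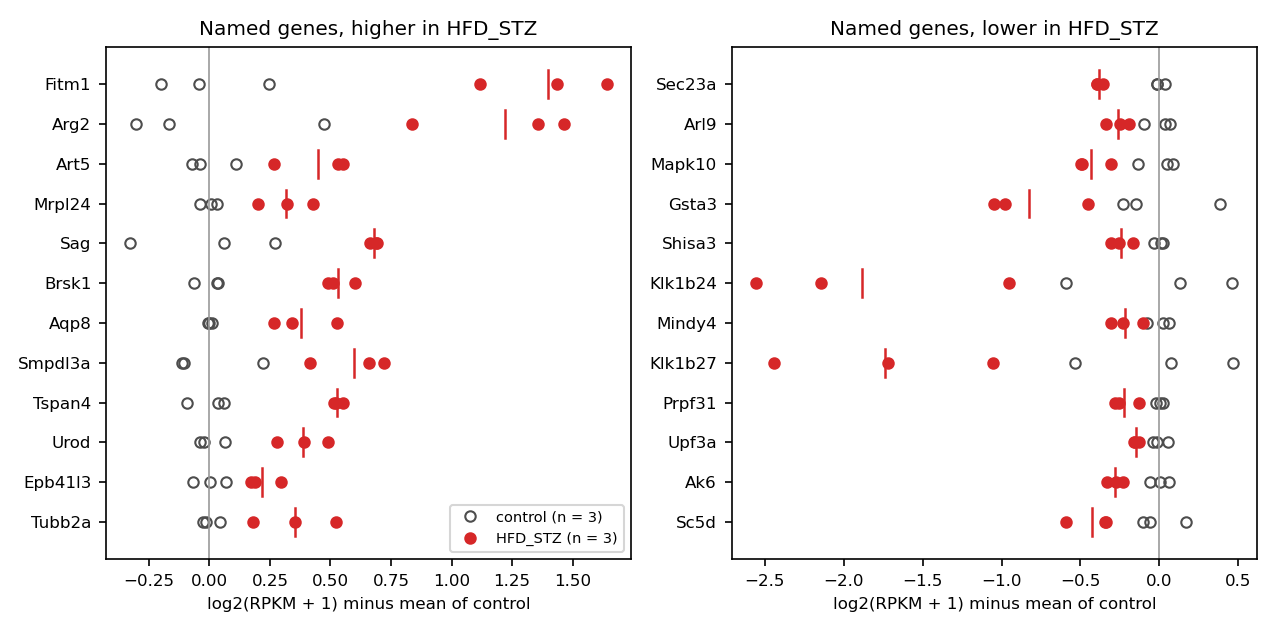
The 24 named genes in each of the 3 control libraries (open circles) and 3 HFD_STZ libraries (filled circles), as log2(RPKM + 1) minus the control mean, with a vertical bar at the HFD_STZ mean. In every row all filled circles lie on 1 side of the open ones, which the naming rule requires, and Klk1b24 and Klk1b27 show the widest spread.

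The same contrast was available in libraries that share none with this one: HFD_STZ_AOS against AOS, where both groups had AOS. Fitm1 stood at 7.33, 9.65 and 8.16 RPKM in AOS and at 24.1, 13.95 and 36.5 RPKM in HFD_STZ_AOS, a difference of 1.37 against 1.40 without AOS. Brsk1 (0.57), Tspan4 (0.55), Smpdl3a (0.53), Sag (0.46), Urod (0.32), Art5 (0.31), Aqp8 (0.29) and Mrpl24 (0.26) were likewise higher with the diet under AOS, with groups that did not overlap. There limma called 75 genes over all genes (0.541%), and Fitm1, Brsk1 and Tspan4 rose and Arl9 and Shisa3 fell at adjusted p values of 0.0394 to 0.0484. That count was 12 with median-ratio scaling, 4 with the length trend removed and 2 with no filter on low values. It was also 3 to 51 when a control or HFD_STZ library was left out, although these libraries enter that contrast only through the shared spread. In all, 11 of the 12 higher genes kept their sign and 10 had groups that did not overlap in the higher direction, where 13.5% of all genes did. Arg2 was the exception. It stood at 5.86, 6.03 and 7.47 RPKM in AOS and at 4.02, 7.40 and 7.54 RPKM in HFD_STZ_AOS, a difference of -0.06, and the test of the difference between the 2 contrasts gave an adjusted p of 0.767. All 12 lower genes kept their sign and 6 had groups that did not overlap in the lower direction, where 5.3% of all genes did. The AOS and HFD_STZ_AOS libraries entered the shared spread behind the p-values that picked the 24 genes. Genes with little spread in these libraries were thus favoured, so the shares of all genes are not a like baseline. Arl9 stood at 102, 91.1 and 103 against 79.9, 80.6 and 77.8 RPKM under AOS, and Shisa3 at 15.6, 17.2 and 15.8 against 13.2, 13.2 and 11.97 RPKM. Sec23a overlapped there, at 38.6, 40.9 and 41.8 against 37.0, 39.7 and 34.4 RPKM.

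Over the larger sets, 742 of the 855 genes higher in HFD_STZ at an unadjusted p under 0.05 (86.8%) were also higher in HFD_STZ_AOS than in AOS, where 64.0% of all genes tested were. Of the 296 lower genes, 217 (73.3%) were also lower, where 36.0% of all genes were. With median-ratio scaling these shares were 80.1% and 81.4%, where 50.1% of all genes were higher and 49.9% lower. The p-values behind both sets rest on a spread that includes the AOS and HFD_STZ_AOS libraries. For that reason the shares of all genes are not a like baseline here either. Across the 13874 genes the 2 differences had a Pearson r of 0.11 and a Spearman rho of 0.33, given as a description, since genes are not independent. Crisp1 stood at 2.93, 0.45 and 157 RPKM in HFD_STZ_AOS and at 0.05 to 0.10 RPKM in AOS, so the library high in epididymal genes was in the treated group there and in the control group here. The part of these genes in the correlation was not tested. A test of whether the diet's difference itself changed with AOS called 0 genes after adjustment in limma, and 640 (4.61%) had an unadjusted p under 0.05.

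**Figure D2:**
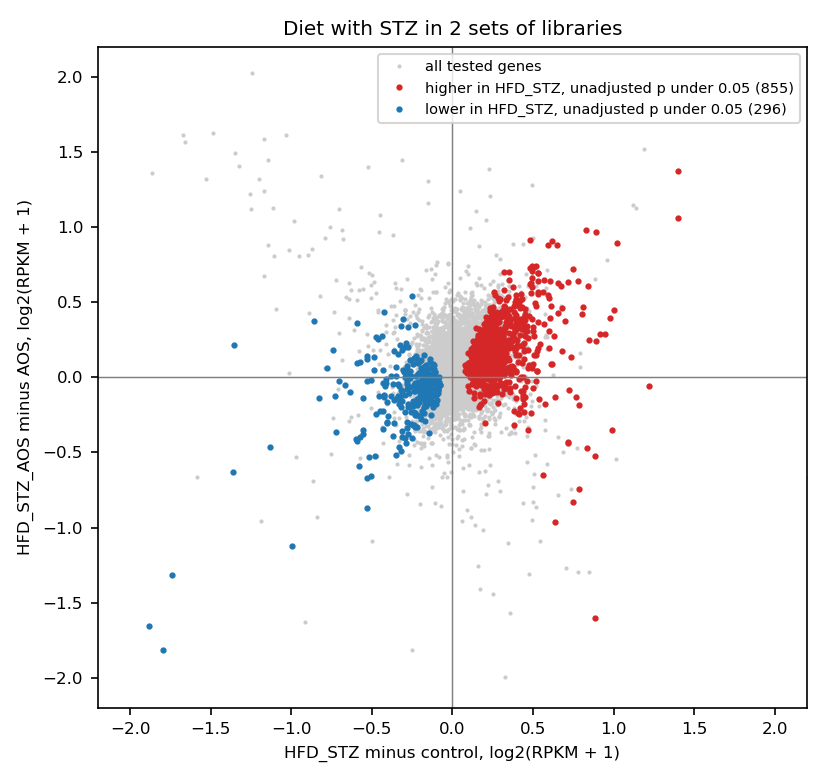
The difference with the diet and STZ in 2 sets of libraries, HFD_STZ minus control on the x axis and HFD_STZ_AOS minus AOS on the y axis, both on log2(RPKM + 1), 1 point per gene. Of the 855 genes in red 86.8% lie above 0 on the y axis, of the 296 in blue 73.3% lie below it, and 5 of the 13874 genes fall outside the axes.

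Genes of antigen presentation by MHC class II molecules were the list with the highest median. Class II molecules are pairs of an alpha and a beta chain that show peptides to helper T cells. They are made mainly by dendritic cells, B cells and activated macrophages, and in the testis by cells between the tubules. Of 13 genes listed, 10 were tested and all 10 were higher in HFD_STZ, with a median difference of 0.54 (0.37 to 0.73 over 14 alternatives) beside a median of 0.02 and 59.5% higher over all genes. An unadjusted p under 0.05 was found for 7 of them, where 6.16% of all genes had one in this direction. The groups of 5 did not overlap, where 11.7% of all genes did not in this direction. None passed limma's adjusted test.

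The chain genes H2-Aa and H2-Eb1 and the peptide transporter gene Tap1, which lies nearer the start of the cluster, are shown with the 250 bases before their start, since all 3 carry the letters of a known class II promoter element. The sequences are those of RefSeq (GRCm38.p6), 5′ to 3′ on the strand of the gene, and capitals mark the letters CTGATTGG or their reverse complement CCAATCAG, the core of the Y box that class II promoters are known for.
H2-Aa, chr17:34287824-34288073, minus strand: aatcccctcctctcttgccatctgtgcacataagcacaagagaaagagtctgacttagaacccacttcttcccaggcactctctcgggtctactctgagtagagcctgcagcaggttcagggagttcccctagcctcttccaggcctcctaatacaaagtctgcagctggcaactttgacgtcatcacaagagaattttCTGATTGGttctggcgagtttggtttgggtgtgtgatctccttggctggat
H2-Eb1, chr17:34305617-34305866, plus strand: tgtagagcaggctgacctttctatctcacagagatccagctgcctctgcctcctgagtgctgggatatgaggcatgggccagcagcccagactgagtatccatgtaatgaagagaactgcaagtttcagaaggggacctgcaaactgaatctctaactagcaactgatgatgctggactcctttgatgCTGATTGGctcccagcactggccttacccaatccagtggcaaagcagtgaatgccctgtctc
Tap1, chr17:34187306-34187555, plus strand: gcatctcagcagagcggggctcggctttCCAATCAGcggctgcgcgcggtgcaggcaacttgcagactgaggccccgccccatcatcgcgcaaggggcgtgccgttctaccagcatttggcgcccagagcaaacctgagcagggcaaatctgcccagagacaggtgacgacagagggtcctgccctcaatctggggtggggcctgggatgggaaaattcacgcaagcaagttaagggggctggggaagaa
On either strand these 8 letters stood in the 250 bases before the start of 3 of the 10 class II genes with a promoter in the table (H2-Aa, H2-Eb1 and H2-Oa), of 6 of 19 listed class I genes and of 3.83% of all 32851 promoters. A match in letters is not evidence of a bound factor.

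The alpha chain gene H2-Aa stood at 5.81, 4.83 and 5.81 RPKM in control and at 12.6, 9.11 and 10.3 RPKM in HFD_STZ, a difference of 0.84 ± 0.32 (limma, adjusted p = 0.487). Its partner H2-Ab1, the beta chain gene, stood at 8.09, 9.12 and 7.86 against 16.7, 11.97 and 17.3 RPKM. Cd74, the invariant chain that fills the class II groove until a peptide is loaded, stood at 9.65, 10.2 and 9.30 against 17.9, 12.3 and 18.9 RPKM. For these 3 genes every HFD_STZ library lay above every control library, and replicate 2 was the lowest of HFD_STZ each time. H2-DMa, a subunit of the exchange factor that loads peptides, stood at 5.57, 5.88 and 6.01 against 8.32, 7.56 and 6.57 RPKM, and its partner H2-DMb1 stood at 1.01, 0.56 and 1.23 against 2.41, 1.18 and 3.18 RPKM, with an overlap. Lgmn, a lysosomal protease that helps to cut the invariant chain, stood at 21.7, 21.7 and 21.6 against 26.6, 25.4 and 27.9 RPKM. Ciita, the coactivator on which class II transcription depends, was under the filter and not tested, at 0.02, 0.03 and 0.02 against 0.06, 0.08 and 0.07 RPKM.

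Genes that feed peptides to MHC class I molecules lie among the class II genes. Psmb8 and Psmb9 encode subunits of the immunoproteasome, and Tap1 and Tap2 form the transporter that carries peptides into the endoplasmic reticulum. Psmb8 stood at 1.49, 0.59 and 1.19 RPKM in control and at 2.14, 2.80 and 3.60 RPKM in HFD_STZ, and Tap2 stood at 1.71, 0.98 and 2.2 against 3.46, 2.79 and 4.17 RPKM. Tap1 stood at 2.87, 0.73 and 3.89 against 5.2, 3.35 and 6.68 RPKM and Psmb9 at 3.63, 0.90 and 2.43 against 4.63, 3.30 and 4.39 RPKM, both with an overlap. Control replicate 2 was the lowest of the 6 libraries for all 4 genes. Psmb9 and Tap1 overlap at their starts on opposite strands. On chromosome 2, B2m, the light chain shared by class I molecules, stood at 60.7, 45.0 and 83.2 against 94.4, 77.9 and 79.4 RPKM, and on chromosome 17, outside the stretch described next, the heavy chain gene H2-K1 stood at 26.7, 26.5 and 31.8 against 33.6, 32.3 and 34.1 RPKM. Of the 18 class I and peptide-supply genes tested, 14 were higher, 5 of them at an unadjusted p under 0.05 (6.16% of all genes), with a median of 0.18 (0.13 to 0.24 over the alternatives).

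The stretch of chromosome 17 from H2-DMa to H2-Ea-ps (chr17:34119541-34344645, GRCm38/mm10), chosen after the values were seen, held 11 tested genes. All 11 were higher in HFD_STZ than in control, with a median of 0.77, and 8 had an unadjusted p under 0.05, where 6.16% of all genes had one in this direction. Since the stretch was chosen for these values, the counts only describe it. Under AOS the order turned: 9 of the 11 were lower in HFD_STZ_AOS than in AOS, 7 of them with groups that did not overlap (5.3% of all genes), and the median was -0.52. Tap1 stood at 3.79, 7.52 and 3.72 RPKM in AOS and at 0.53, 1.09 and 1.15 RPKM in HFD_STZ_AOS. AOS replicate 2 was the highest of its group for Tap1, Tap2, Psmb8 and Psmb9, yet the other 2 AOS libraries also lay above all of HFD_STZ_AOS. The other 2 were H2-DMa (0.05) and H2-Aa, which stood at 4.18, 11.3 and 3.51 against 10.99, 7.67 and 8.83 RPKM. Over the whole class II list the median under AOS was -0.05, with 5 of 10 genes higher. ICR mice are outbred, the MHC differs between haplotypes, and genotypes were not analysed here.

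Markers of some of the cells that could carry class II were set beside this, and no list was made for dendritic cells. In a whole testis, more cells of a type and more RNA per cell cannot be told apart. Of 16 macrophage genes tested, 10 were higher, with a median of 0.05. An unadjusted p under 0.05 was found for 0 higher members and 1 lower member (2.13% of all genes). Groups did not overlap for 3 higher members (11.7% of all genes) and 1 lower member (4.53%). The summed level of the listed macrophage genes was 424 to 435 RPKM in control and 421 to 427 RPKM in HFD_STZ. The 3 genes named next are a small part of that sum. It follows other, more abundant listed members and does not measure the amount of macrophages. The macrophage genes Cd68 (3.49, 3.25 and 3.20 against 3.54, 3.61 and 3.92 RPKM), Csf1r (2.82, 2.67 and 2.39 against 2.29, 2.89 and 2.69 RPKM) and Adgre1 (1.37, 1.40 and 1.34 against 1.15, 1.05 and 1.47 RPKM) had adjusted p values of 0.901 or more. Of 14 genes of T, B and NK cells in the table, 1 reached the filter. Their summed level was 4.92 to 7.35 RPKM in control and 6.75 to 8.0 RPKM in HFD_STZ, and the T cell receptor gene Cd3e stood at 0.15, 0.10 and 0.23 against 0.20, 0 and 0 RPKM. The part of these cells in the class II values was not tested.

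**Figure D3:**
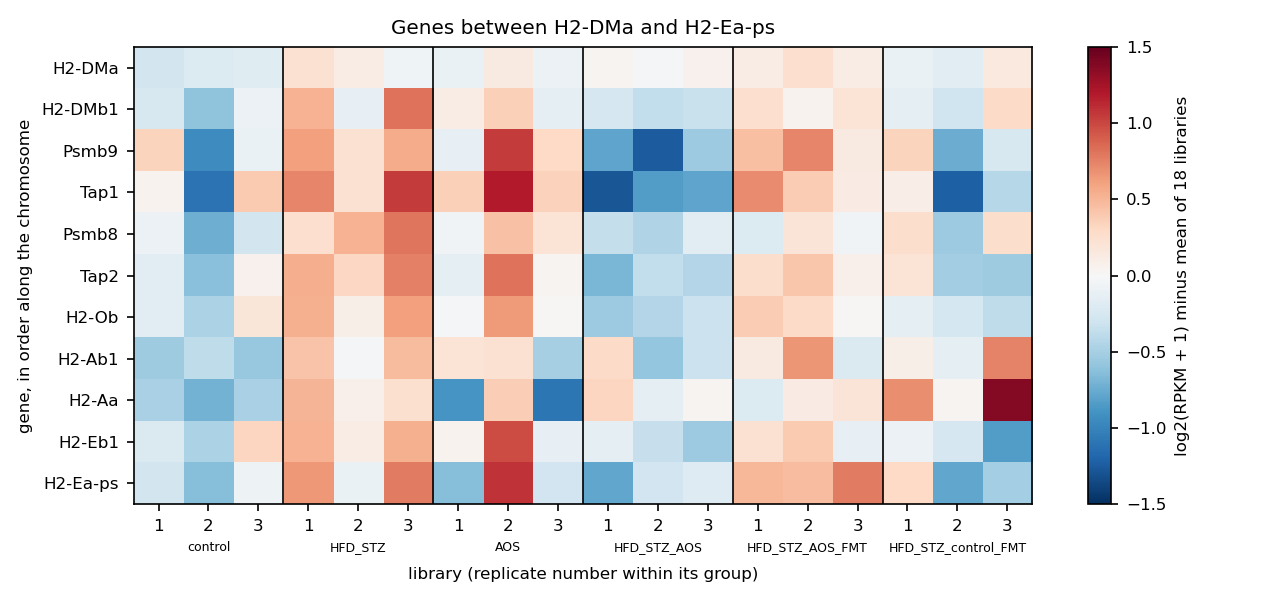
The 11 tested genes from H2-DMa to H2-Ea-ps (rows) in all 18 libraries (columns, by group), coloured by log2(RPKM + 1) minus the gene's mean over the 18 libraries. The control columns are mostly blue and the HFD_STZ columns mostly red, while AOS replicate 2 is red and the HFD_STZ_AOS columns are mostly blue except for H2-Aa.

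Interferon-induced genes were mostly higher as well. Interferons are secreted signals of infection and inflammation that also raise MHC and immunoproteasome genes. Of the 19 tested, 17 were higher, where 59.5% of all genes were, and 7 did not overlap, where 11.7% of all genes did not. The median was 0.23 (0.10 to 0.30 over the alternatives). Only Oasl1 had an unadjusted p under 0.05, a share near the 6.16% of all genes. Oasl1, which binds the messenger RNA of an interferon regulator, stood at 0.67, 0.35 and 0.45 RPKM in control and at 1.01, 0.96 and 1.2 RPKM in HFD_STZ. Oasl2 stood at 2.31, 2.27 and 1.85 against 2.57, 4.53 and 2.68 RPKM and Irf7 at 1.23, 0.51 and 0.85 against 1.25, 2.74 and 0.94 RPKM, so replicate 2 of HFD_STZ was the highest library for both, while it was the lowest of its group for the class II chains. Under AOS the list's median was 0.05, with 10 of 19 genes higher.

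Tissue kallikreins, secreted serine proteases encoded side by side on chromosome 7, held 4 of the 9 genes with a difference of -1 or less also without control replicate 3. Another of these 9 was P2rx5, an ion channel opened by ATP, at 5.09, 3.25 and 7.23 RPKM in control and 1.59, 2.55 and 0.38 RPKM in HFD_STZ, which was chosen after its values were seen. Klk1b21, Klk1b24 and Klk1b27 are known from Leydig cells, where androgen raises some of them. The family has near-identical members, so reads may have been split or shared between them, and the values of single members are uncertain. It was singled out after the values were seen. The 250 bases before the start of these 3 genes are printed from RefSeq (GRCm38.p6, 5′ to 3′, plus strand) to show how alike they are, with the longest run that all 3 share in capitals, and Klk1b8 follows as a member at similar levels in both groups.
Klk1b21, chr7:44102042-44102291: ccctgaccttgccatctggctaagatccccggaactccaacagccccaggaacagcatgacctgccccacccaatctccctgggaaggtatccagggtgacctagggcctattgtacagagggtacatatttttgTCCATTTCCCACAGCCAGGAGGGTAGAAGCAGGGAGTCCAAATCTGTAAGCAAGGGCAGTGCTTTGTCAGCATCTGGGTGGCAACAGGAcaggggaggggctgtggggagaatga
Klk1b24, chr7:44187986-44188235: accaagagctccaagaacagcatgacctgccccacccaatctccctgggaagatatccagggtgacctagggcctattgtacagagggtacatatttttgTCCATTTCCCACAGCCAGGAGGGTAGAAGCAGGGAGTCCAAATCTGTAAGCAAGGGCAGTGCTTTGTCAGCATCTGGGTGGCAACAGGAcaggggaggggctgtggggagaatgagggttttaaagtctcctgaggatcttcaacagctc
Klk1b27, chr7:44052040-44052289: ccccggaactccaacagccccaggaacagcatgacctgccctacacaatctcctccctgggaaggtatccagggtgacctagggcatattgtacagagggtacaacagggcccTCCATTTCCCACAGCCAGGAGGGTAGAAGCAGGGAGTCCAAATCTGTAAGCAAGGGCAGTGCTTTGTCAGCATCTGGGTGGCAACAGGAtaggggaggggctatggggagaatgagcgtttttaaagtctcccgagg
Klk1b8, chr7:43950416-43950665: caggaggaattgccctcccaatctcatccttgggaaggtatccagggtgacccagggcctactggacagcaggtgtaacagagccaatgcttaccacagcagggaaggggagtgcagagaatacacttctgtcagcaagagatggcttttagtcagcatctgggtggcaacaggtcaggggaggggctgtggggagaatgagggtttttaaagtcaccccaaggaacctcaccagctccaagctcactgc
The shared run was 89 bases long and was found whole in 0 of the other 11 promoters of Klk1 and Klk1b genes in the table. In pairwise alignments with gaps counted the 3 promoters were 75.1% to 82.6% identical to each other and 41.9% to 80.7% identical to the others. Over aligned bases alone, which leaves out offset ends, these ranges were 92.4% to 99.5% and 82.3% to 89.4%, and Klk1b21 and Klk1b24 matched at 214 of 215 aligned bases.

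Klk1b24 stood at 29.6, 23.4 and 13.7 RPKM in control and at 2.78, 4.04 and 10.5 RPKM in HFD_STZ, a difference of -1.88 ± 0.47 (limma, adjusted p = 0.280). Klk1b21 stood at 26.5, 21.6 and 15.9 against 2.48, 5.12 and 10.8 RPKM, and Klk1b27 at 22.4, 16.8 and 10.7 against 2.11, 4.14 and 7.15 RPKM. For all 3 genes control replicate 3 was the lowest control library and HFD_STZ replicate 3 the highest HFD_STZ library, so the groups came closest between these 2 libraries. Klk1b22 stood at 4.26, 3.43 and 0.92 against 0.09, 0.65 and 0.46 RPKM, and Klk1, the tissue kallikrein that frees kinins from kininogen, stood at 7.45, 8.18 and 4.48 against 3.12, 4.40 and 4.56 RPKM. These 5 genes had an unadjusted p under 0.05, 5 of the 12 family members tested, where 2.13% of all genes had one in this direction. The other 7 differed by -0.23 to 0.14. The most abundant of them, Klk1b8, stood at 85.8, 81.7 and 75.1 against 74.6, 80.3 and 92.1 RPKM.

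Control was the highest of the 6 groups for Klk1b21, Klk1b24 and Klk1b27, and AOS without the diet was also low. Klk1b24 stood at 6.03, 9.20 and 7.27 RPKM in AOS, below all 3 control libraries, and at 2.39, 1.59 and 1.15 RPKM in HFD_STZ_AOS. Under AOS the diet's difference was -1.66 for Klk1b24, -1.82 for Klk1b21 and -1.32 for Klk1b27, and the groups of each did not overlap. Other Leydig cell genes were set beside them. Of the 20 genes of Leydig cells and steroid synthesis tested, 11 were higher and 9 lower, with a median of 0.02 that turned negative in 3 of 14 alternatives and was 0.08 without HFD_STZ replicate 1. Under AOS 17 of the 20 were higher, with a median of 0.16. Star, which brings cholesterol into mitochondria, stood at 37.6, 43.1 and 52.8 against 39.4, 44.2 and 44.1 RPKM. Cyp17a1, the enzyme that opens the way to androgens, stood at 375, 307 and 362 against 272, 291 and 303 RPKM, and Hsd3b1 at 81.6, 64.5 and 67.4 against 97.8, 114 and 74.7 RPKM, so enzymes of 1 pathway lay on different sides. Nr5a1, the transcription factor of steroid-making cells, stood at 13.8, 12.8 and 11.05 against 14.2, 15.4 and 13.6 RPKM.

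**Figure D4:**
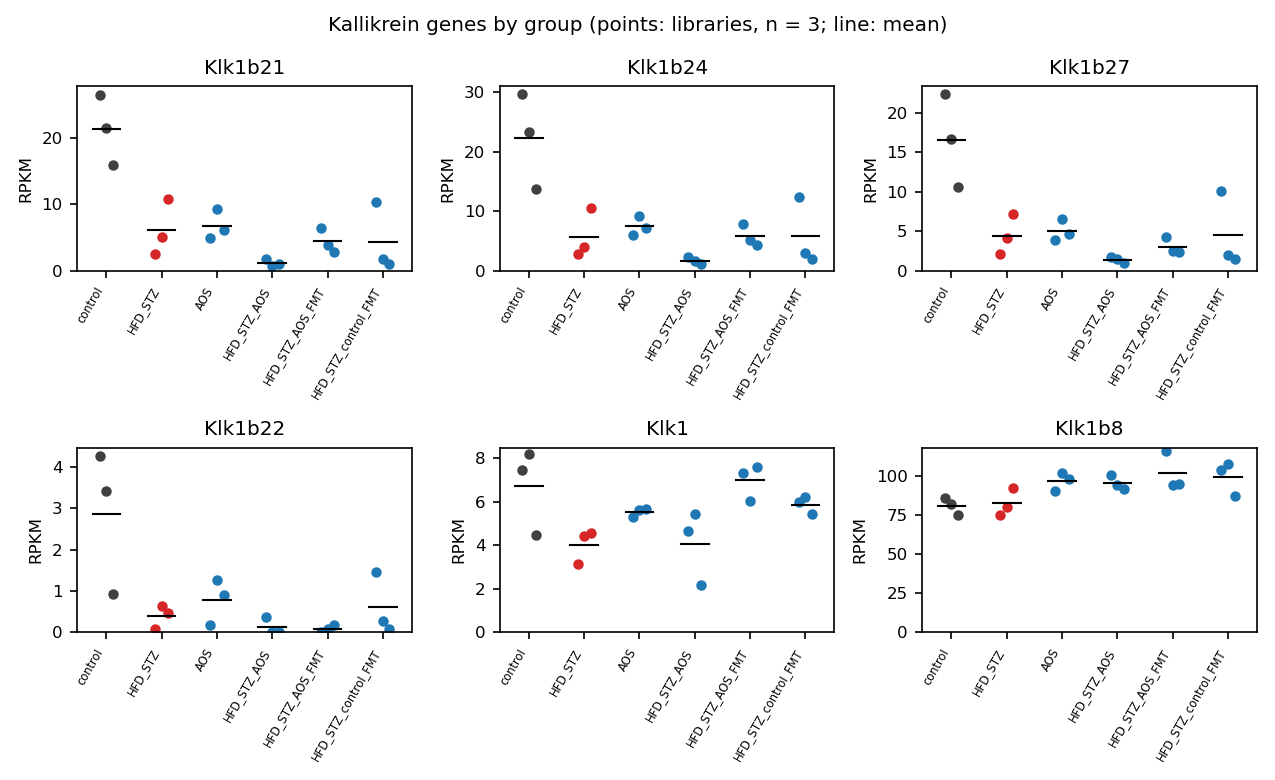
RPKM of 6 kallikrein genes in the 18 libraries by group (points, n = 3 each) with the group mean (line), each panel with its own axis from 0. Klk1b21, Klk1b24, Klk1b27 and Klk1b22 are highest in control and low in the other 5 groups, whereas Klk1b8 stands between 74.6 and 116 RPKM in all libraries.

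Cyp21a1, the steroid 21-hydroxylase of adrenal hormone synthesis, was higher with the diet in both sets of libraries. It stood at 2.48, 4.10 and 4.45 RPKM in control and at 9.48, 6.97 and 8.67 RPKM in HFD_STZ, a difference of 1.02 ± 0.24 (limma, adjusted p = 0.276). Under AOS it stood at 3.84, 3.82 and 2.45 against 8.56, 5.78 and 7.03 RPKM. Reads of its near-identical pseudogene could have been counted for it, which makes the values uncertain.

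Targets of the PPAR receptors, nuclear receptors that bind fatty acids and switch on their transport and oxidation, were higher in 16 of 18 tested members. Of these, 6 had an unadjusted p under 0.05 (6.16% of all genes), 7 did not overlap (11.7% of all genes), and the median was 0.18 (0.12 to 0.22 over the alternatives). Fitm1 belongs to this list. Fabp3, a carrier of fatty acids in the cytosol, stood at 184, 187 and 146 RPKM in control and at 250, 175 and 239 RPKM in HFD_STZ, with replicate 2 of HFD_STZ inside the control range. Vnn1, a pantetheinase, stood at 9.12, 9.26 and 8.14 against 11.6, 10.0 and 12.1 RPKM, and Ucp2, a carrier of the inner mitochondrial membrane, stood at 30.8, 25.9 and 31.4 against 34.9, 31.8 and 34.1 RPKM. Replicate 2 of HFD_STZ was the lowest of its group for all 3 genes. Under AOS the list's median was 0.22, with 17 of 18 members higher, and there Fabp3 stood at 130, 178 and 117 against 217, 237 and 230 RPKM. Adipocyte genes were also higher in that contrast, in 11 of 13 members with a median of 0.32, and their part in these values was not tested.

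Of 28 tested genes of fatty acid oxidation, 19 were higher, with a median of 0.05 (0.01 to 0.08 over the alternatives). An unadjusted p under 0.05 was found for 4 higher members (6.16% of all genes) and 1 lower member (2.13%), and 6 did not overlap in the higher direction (11.7%). Under AOS 24 of 28 were higher, with a median of 0.14. Cpt1b, the muscle-type carnitine transferase that is also made by germ cells, stood at 107, 109 and 111 RPKM against 120, 115 and 120 RPKM. Decr1 stood at 3.02, 2.89 and 3.36 against 4.47, 3.43 and 4.15 RPKM and Acadl at 13.1, 12.7 and 10.4 against 14.2, 13.5 and 14.5 RPKM, both enzymes of the mitochondrial spiral. Etfb, which takes electrons from the dehydrogenases, was lower, at 32.0, 29.3 and 32.1 against 28.1, 27.0 and 30.7 RPKM. Of 24 genes of lipid droplets and triglyceride, 11 were higher, with a median of -0.01 that turned positive in 2 alternatives. Plin3, a coat protein of lipid droplets, stood at 9.83, 11.8 and 13.0 against 14.2, 15.3 and 14.4 RPKM.

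Cholesterol synthesis had the lowest median of the lists, -0.07 (-0.13 to -0.03 over the alternatives). Of 27 tested genes 19 were lower, where 59.5% of all genes were higher. An unadjusted p under 0.05 was found for 1 higher member (6.16% of all genes) and 2 lower members (2.13%). Groups did not overlap for 1 higher member (11.7% of all genes) and 3 lower members (4.53%). The 2 lower members at this p were Sc5d and Mvd. Mvd, which makes isopentenyl diphosphate, stood at 3.09, 2.49 and 3.53 RPKM in control and at 2.15, 2.51 and 2.64 RPKM in HFD_STZ. Msmo1, a sterol demethylase, stood at 22.5, 20.6 and 24.7 against 14.3, 23.2 and 16.03 RPKM, and Tm7sf2, a sterol reductase, at 4.44, 4.14 and 4.88 against 3.38, 3.59 and 3.79 RPKM. Pmvk, which acts just before Mvd, was higher, at 8.62, 8.68 and 7.14 against 9.10, 8.69 and 10.3 RPKM. Under AOS the list did not lie on the same side: 21 of 27 genes were higher in HFD_STZ_AOS than in AOS, with a median of 0.07, and Msmo1 stood at 14.1, 15.3 and 12.8 against 12.8, 14.3 and 17.6 RPKM.

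**Figure D5:**
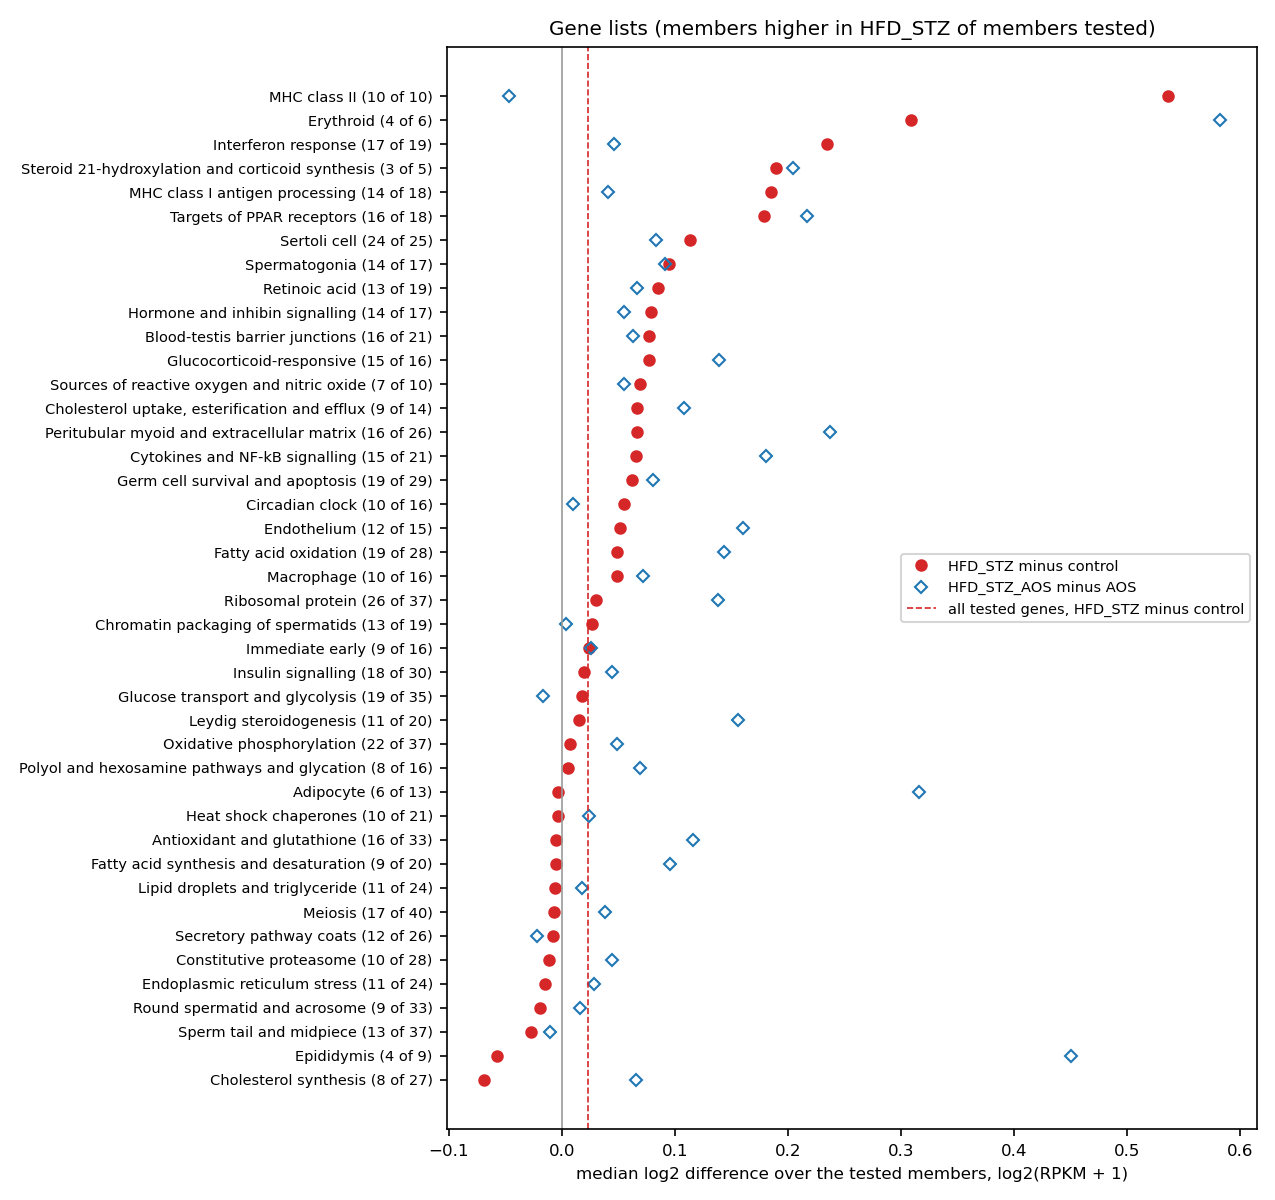
Median difference over the tested members of each of the 42 gene lists with at least 5 tested members, for HFD_STZ minus control (filled circles) and HFD_STZ_AOS minus AOS (open diamonds), on log2(RPKM + 1), with the median of all genes for the former as a dashed line. MHC class II has the highest filled circle (0.54) with its diamond below 0, and cholesterol synthesis has the lowest filled circle (-0.07).

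Sertoli cell genes were higher in 24 of 25 tested members, where 59.5% of all genes were, with a median of 0.11 (0.08 to 0.14 over the alternatives). An unadjusted p under 0.05 was found for 4 members (6.16% of all genes) and 6 did not overlap (11.7% of all genes). Besides Aqp8, the former were Gata1, Ctsl and Cldn11, and the groups of each did not overlap. Gata1, a transcription factor of Sertoli cells, stood at 3.98, 4.41 and 3.66 RPKM in control and at 5.43, 5.25 and 4.81 RPKM in HFD_STZ. Ctsl, a protease that Sertoli cells secrete in a stage-dependent way, stood at 130, 124 and 123 against 140, 145 and 137 RPKM. Cldn11, the claudin of the blood-testis barrier, stood at 34.0, 32.1 and 33.3 against 38.1, 37.4 and 37.0 RPKM. The barrier list, which shares Cldn11, had 16 of 21 genes higher and a median of 0.08 (0.05 to 0.10). An unadjusted p under 0.05 was found for 4 members, Cldn11 among them (6.16% of all genes). In the higher direction 4 did not overlap (11.7% of all genes). Its other members at an unadjusted p under 0.05 were the adhesion molecule Jam2, at 3.38, 3.71 and 4.11 against 4.50, 4.87 and 4.68 RPKM, the actin regulator Eps8, at 2.65, 2.54 and 2.42 against 3.42, 3.36 and 2.75 RPKM, and Nectin2, at 28.8, 28.1 and 27.8 against 30.8, 30.9 and 29.8 RPKM. All 4 lay higher in HFD_STZ with no overlap. Under AOS the medians of the 2 lists were 0.08 and 0.06, while Cldn11 (0.03) and Nectin2 (0.00) overlapped there.

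Medians of the germ cell lists lay between -0.03 and 0.10. Spermatogonial genes were higher in 14 of 17 tested members, where 59.5% of all genes were, with a median of 0.10. The groups of 3 did not overlap in this direction (11.7% of all genes), and 0 members had an unadjusted p under 0.05. Of 40 meiosis genes, 17 were higher and 23 lower, with a median of -0.01 that turned positive in 3 alternatives. An unadjusted p under 0.05 was found for 2 higher members (6.16% of all genes) and 1 lower member (2.13%), shares near those of all genes. Rnf212, which marks crossover sites, stood at 4.53, 4.2 and 4.43 RPKM in control and at 5.70, 4.86 and 5.82 RPKM in HFD_STZ, and Psmc3ip, a partner of the meiotic recombinases, stood at 170, 155 and 140 against 137, 148 and 127 RPKM. Round spermatid and acrosome genes were lower in 24 of 33 members, with a median of -0.02 (-0.05 to -0.01), and sperm tail genes in 24 of 37, with a median of -0.03 (-0.06 to -0.02). Acr, the acrosomal protease, stood at 192, 190 and 199 against 185, 175 and 172 RPKM, and Ift74, a protein of intraflagellar transport, at 166, 169 and 149 against 145, 151 and 137 RPKM. Each was the 1 member of its list at an unadjusted p under 0.05, a share near the 2.13% of all genes in this direction.

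Genes of insulin action and sugar use were mostly close to control. Of 30 insulin signalling genes tested, 18 were higher, 0 had an unadjusted p under 0.05, and the median of 0.02 turned negative in 4 alternatives. The insulin receptor gene Insr stood at 2.66, 3.23 and 3.30 RPKM in control and at 3.72, 3.54 and 3.14 RPKM in HFD_STZ, and Slc2a3, the main glucose transporter of germ cells, stood at 295, 311 and 300 against 296, 325 and 302 RPKM. Glycolysis had members on both sides: Tpi1, the triose phosphate isomerase, stood at 156, 164 and 158 against 182, 182 and 182 RPKM, while Pgam2, the muscle-type phosphoglycerate mutase, stood at 1218, 1101 and 1066 against 1013, 908 and 1008 RPKM. Tpi1 was also higher under AOS, at 161, 163 and 155 against 201, 182 and 233 RPKM. Txnip, a gene raised by glucose that restrains glucose uptake, stood at 25.5, 24.8 and 26.9 against 38.3, 32.9 and 35.6 RPKM, a difference of 0.45 ± 0.20 (limma, adjusted p = 0.583). Of 35 genes in the list, 4 higher (6.16% of all genes) and 2 lower ones (2.13% of all genes) had an unadjusted p under 0.05, and the median of 0.02 turned negative in 3 alternatives.

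The polyol pathway turns glucose into sorbitol and then fructose, and it is known for its flux in diabetic tissue. Of 16 tested genes of this and related pathways, 8 were higher and 8 lower, with a median of 0.01 that turned negative in 3 alternatives. Akr1b3, the aldose reductase of the first step, stood at 115, 117 and 114 RPKM in control and at 124, 125 and 128 RPKM in HFD_STZ. Sord, the sorbitol dehydrogenase of the second step, which is abundant in testis, stood at 639, 654 and 655 against 460, 595 and 652 RPKM, with most of its difference in replicate 1. Khk, which phosphorylates fructose, stood at 1.56, 1.79 and 1.57 against 2.58, 2.52 and 1.98 RPKM. Under AOS both Akr1b3 (0.15) and Khk (0.38) were again higher with groups that did not overlap, and Sord (-0.04) overlapped.

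Of 33 antioxidant and glutathione genes tested, 16 were higher and 17 lower, with a median of -0.005 that changed sign in 4 alternatives. Srxn1, which repairs overoxidized peroxiredoxins, stood at 16.2, 14.5 and 15.4 RPKM in control and at 18.9, 17.4 and 17.1 RPKM in HFD_STZ, and Prdx4, a peroxiredoxin of the secretory pathway, at 114, 124 and 116 against 129, 128 and 129 RPKM. Txnrd3, a thioredoxin and glutathione reductase of the testis, was lower, at 188, 197 and 188 against 183, 181 and 172 RPKM, and Gstp1, a glutathione transferase, stood at 73.0, 68.9 and 90.6 against 53.5, 64.2 and 70.0 RPKM. Among 10 tested sources of reactive oxygen and nitric oxide, Arg2, Asl and Nos3 were higher at an unadjusted p under 0.05 (6.16% of all genes), and 0 were lower. Asl, which makes the arginine that Arg2 and nitric oxide synthases use, stood at 5.87, 5.95 and 6.41 against 7.31, 7.22 and 8.62 RPKM, and Nos3, the endothelial nitric oxide synthase, at 0.49, 0.65 and 0.66 against 0.64, 0.96 and 0.98 RPKM.

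Of 29 genes of germ cell survival and apoptosis tested, 19 were higher, with a median of 0.06 (0.04 to 0.07). The 2 at an unadjusted p under 0.05, a share near the 6.16% of all genes, were Mcl1 and Birc3, which both encode inhibitors of cell death. Mcl1 stood at 22.02, 22.4 and 21.5 RPKM in control and at 24.6, 24.5 and 24.3 RPKM in HFD_STZ, and Birc3 at 1.27, 1.24 and 1.38 against 2.2, 1.54 and 1.89 RPKM. The pro-apoptotic gene Bax stood at 6.39, 6.83 and 8.51 against 7.62, 7.48 and 7.33 RPKM. In the circadian list, 10 of 16 genes were higher, among them the clock output factors Nfil3, at 1.64, 1.71 and 2.33 against 3.24, 2.62 and 3.67 RPKM, and Dbp, at 3.27, 3.24 and 3.03 against 3.96, 4.29 and 3.86 RPKM. The hour of sampling is not given in the sources used here. Of the panel of 20 genes set for hormone, insulin, stress and survival roles, 15 were tested, and the 12 besides Fitm1, Arg2 and Sec23a had differences of -0.21 to 0.14 with a smallest unadjusted p of 0.0929.

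Erythroid genes were higher in 4 of 6 tested members, a share near the 59.5% of all genes, with a median of 0.31. The median was 0.79 with the length trend removed, a setting that leaves out genes without a transcript length. Over the other alternatives it was 0.25 to 0.50. Under AOS 6 of 6 were higher, with a median of 0.58. Hba-a1, an alpha globin, stood at 101, 110.02 and 85.6 RPKM in control and at 114, 144 and 178 RPKM in HFD_STZ, and Hbb-bs, a beta globin, at 0.29, 19.0 and 3.28 against 23.9, 31.8 and 20.7 RPKM. The summed level of the listed erythroid genes was 147 to 180 RPKM in control and 181 to 279 RPKM in HFD_STZ. These ranges nearly touched, and Hba-a1 was a large part of the sum. The part of the erythroid genes in the other differences was not tested. The alpha and beta globin genes have near-identical copies, and Hbb-bs belongs to 1 of the haplotypes of the beta globin cluster, so their values are uncertain. Adipocyte genes were higher in 6 of 13 members, with sums of 426 to 451 RPKM in control and 419 to 433 RPKM in HFD_STZ.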

How the data were processed

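Per the labels' protocols, Illumina libraries were made from total RNA of frozen testes. Bowtie 0.12.2 and build mm10 are named in the submitters' processing notes. How reads were counted, with which annotation and strand setting, is not given in the sources used here. A single table of values per gene symbol and library was deposited. The unit RPKM was inferred from the deposited values, not from a header. RPKM moves all genes when abundant ones change. Of 20985 rows, 6 rows that shared 3 symbols were left out, which left 20979 genes, 384 of them at 0 throughout. Spreadsheet dates stood in place of symbols on 26 rows, and no gene was named from them.

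Genes had to reach 1 RPKM in 3 or more libraries. The pseudocount was 1. limma 3.58.1 in R 4.3.3, with a variance trend, fitted 1 coefficient per group over all 18 libraries (12 residual and 3.71 prior degrees of freedom), with two-sided tests and Benjamini-Hochberg adjustment over all genes at 0.05. A test for counts had been set as an option and was not used because the table held RPKM. The fit was tested on simulated data. Coordinates and transcript lengths came from GENCODE vM21 (GRCm38/mm10), which held 96.5% of the symbols, and promoters from RefSeq (GRCm38.p6). Tables and plots were made with Python 3.11.15, pandas 2.3.3, numpy 2.4.6 and matplotlib 3.10.9.

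The genes named were the 12 higher and 12 lower ones described, up to 4 members with the smallest p and up to 3 first-listed members of each list described, and a panel of 20 genes. A few list members are not reported by name, though counts and medians cover them. The members and lists were chosen with earlier results of these data known. Alternatives were a fit on 6 libraries, median-ratio scaling, no filter, a pseudocount of 0.1, a block for the replicate number, limma's robust option, removal of the trend on transcript length (lowess, span 0.3) and leaving out each library in turn.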

Additional observations from a re-analysis of the deposited data

Results flagged for a closer look

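Psmb8 and Tap2, genes of peptide supply in the MHC cluster, were higher with the diet and STZ in all 3 libraries of HFD_STZ than in all control libraries, and lower in all 3 libraries of HFD_STZ_AOS than in all AOS libraries. The difference between the 2 contrasts was -1.41 for Psmb8 and -1.52 for Tap2 on log2(RPKM + 1). In limma's test of that difference the adjusted p was 0.566 for Psmb8 and 0.628 for Tap2, so neither passed over all genes. Of the 13874 genes tested, 45 had groups that did not overlap in opposite directions in the 2 contrasts, counting both orders.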

How the results depend on the processing

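limma called 0 genes in each of the 14 alternatives, with a smallest adjusted p of 0.0532 (no filter) to 0.402 (without HFD_STZ replicate 3). The number of lower genes at an unadjusted p under 0.05 rose from 296 to 575 with median-ratio scaling and to 613 with the length trend removed, where the higher genes were 617 each time. Leaving out 1 library gave 629 to 836 higher and 241 to 314 lower genes. Same-numbered libraries of control and HFD_STZ had correlations of deviations from their group means of -0.042, -0.031 and -0.004. No reference from differently numbered libraries was computed, so these values cannot tell whether a replicate number marks a shared batch. With the replicate number as a block in the fit of all libraries 929 genes were higher and 326 lower, and with the block on the 6 libraries alone 1004 and 344, again with 0 called. Of the 99 genes followed through the alternatives only Klk1b8 changed sign, from 0.02 to -0.0061 with median-ratio scaling, to -0.0095 with the length trend removed, and to -0.029 without control replicate 3, with -0.060 to 0.090 over all single omissions. Of the 42 list medians, 25 kept their sign. Alternatives for the second contrast were chosen after seeing the data, and the shares of genes with the same sign there were 80.1% to 86.8% for the higher and 62.8% to 81.6% for the lower genes. The number of genes called in that contrast, 75, was 12 with median-ratio scaling, 4 with the length trend removed, 2 with no filter and 25 with the block over all libraries, and 3 to 51 with 1 control or HFD_STZ library left out (3, 9 and 5 without control replicates 1 to 3, 10, 51 and 36 without those of HFD_STZ). The depth in reads is unknown here, so the precision of low values cannot be given.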
